A study of Homo sapiens with 10 samples.

Results

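The 10 genes described here encode the transforming growth factor beta (TGF-beta) ligands *TGFB1*, *TGFB2* and *TGFB3*, the receptors *TGFBR1*, *TGFBR2* and *TGFBR3*, and the latent TGF-beta binding proteins *LTBP1*, *LTBP2*, *LTBP3* and *LTBP4*. They were chosen by gene symbol from the 36687 genes of the deposited tables, and all 10 were among the 15727 genes that passed the filter on low counts. RNA-seq was done on MDA-MB-231, a wild-type human breast adenocarcinoma line of the basal B, triple-negative type. The 10 libraries were 2 biological replicates each of untreated cells (0 h, labelled sham) and of cells given dasatinib, an inhibitor of SRC family and ABL kinases, for 6, 12, 24 or 48 h. The treatment field of the 0 h samples also reads dasatinib, so their use as untreated rests on the titles and on the study's own description. The dose was 100 nM by the study's description of the experiment, since the sample labels give none. No untreated cells were collected at the later times, so each difference from 0 h also holds the time in culture, and dasatinib and time cannot be told apart. All samples come from 1 cell line, and the labels call the replicates biological but do not say whether they were separate cultures, so the p-values measure the spread between these samples.

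TGF-beta is secreted in a latent form. Its own propeptide stays wrapped around the ligand, and an LTBP bound to that propeptide ties the complex to fibrillin and fibronectin in the extracellular matrix until integrins or proteases release it. The free ligand joins the type II receptor TGFBR2 to the type I receptor TGFBR1, which phosphorylates SMAD2 and SMAD3, while TGFBR3 (betaglycan) presents ligand, above all TGF-beta 2, to the signaling pair. In breast cancer cells of mesenchymal type this pathway is known for its links to invasion and to matrix production.

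The 250 bases upstream of the transcription start are shown for *TGFB2*, the only member called lower than at 0 h, and for *LTBP1*, the member with the largest log2 fold change at 48 h. They lie on the + strand at chr1:218345086-218345335 and chr2:32946703-32946952 of GRCh38.p14, from RefSeq, and run 5′ to 3′ up to the base before the start. Capitals mark the matches to the motifs given after them.
TGFB2: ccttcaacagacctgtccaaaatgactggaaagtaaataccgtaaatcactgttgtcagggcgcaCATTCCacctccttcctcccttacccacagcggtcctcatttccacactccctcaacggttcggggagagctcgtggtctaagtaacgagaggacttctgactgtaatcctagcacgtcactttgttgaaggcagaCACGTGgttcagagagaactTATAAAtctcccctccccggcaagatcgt
LTBP1: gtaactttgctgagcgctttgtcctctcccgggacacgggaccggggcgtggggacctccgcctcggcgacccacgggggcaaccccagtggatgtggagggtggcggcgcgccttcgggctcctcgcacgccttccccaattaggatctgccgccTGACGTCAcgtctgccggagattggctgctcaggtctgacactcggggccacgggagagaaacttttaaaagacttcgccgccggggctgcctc

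Both strands were searched for 6 motifs: the TEAD element CATTCC, the E-box CACGTG, the TATA box TATAAA, the cAMP response element TGACGTCA, the AP-1 element TGANTCA and the SMAD element GTCTAGAC. The *TGFB2* window held CATTCC at -185 to -180, CACGTG at -49 to -44 and TATAAA at -29 to -24, counted from the start. The *LTBP1* window held TGACGTCA at -94 to -87 and none of the others. No match overlapped another. Of the first-listed upstream windows of 27305 genes, 11.9% held CATTCC, 6.49% CACGTG, 11.1% TATAAA and 1.77% TGACGTCA, against 6.60% for TGANTCA and 0.176% for GTCTAGAC. These are matches of letters and not sites shown to be bound. RefSeq lists 3 starts for *LTBP1* and 1 for *TGFB2*, and counts per gene cannot tell starts apart. An exon of the antisense gene *TGFB2-AS1* also lies in the *TGFB2* window.

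Total counts per library lay between 40942913 and 49133774. *VIM*, a mesenchymal marker of basal B lines, was at 633 to 913 TPM, the deposited transcript level scaled by gene length and library total, the luminal markers *ESR1* and *CDH1* at up to 0.144 and 0.133 TPM, *PGR* was listed at 0, and the leukocyte marker *PTPRC* reached 0.145 TPM. Other luminal markers were present, with *SPDEF* at 14.5 to 95.3 TPM. One library, 12 h replicate 1, differed from the rest: its best correlation of log2 CPM with another library was 0.955, where each of the others reached 0.983 to 0.987. Relative to the mean of the other libraries, its log2 CPM rose by 0.167 for each doubling of gene length, against slopes of -0.081 to 0.0678 elsewhere (0.0614 and 0.0678 at 48 h, -0.0245 and -0.0336 at 0 h). Of the members, *TGFB1* is shorter than the median gene tested and *TGFB3* is about as long. The others are longer: *TGFB2* is 1.24 times as long, *TGFBR1* 1.39, *TGFBR2* 1.40, *TGFBR3* 1.75 and the *LTBP* genes 1.5 to 2.18 times.

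In untreated cells the members spanned a wide range of TPM, which allows genes to be compared. *TGFB1* was highest at 126 to 146 TPM, followed by *TGFBR2* at 91.9 to 93.6, *LTBP4* at 53.7 to 58.0 and *TGFB2* at 38.9 to 39.4 TPM. *LTBP1* (25.1 to 25.6), *TGFBR1* (24.0 to 24.9) and *LTBP3* (21.8 to 23.1) lay close together, and *TGFBR3* (12.0 to 12.8), *LTBP2* (5.17 to 5.33) and *TGFB3* (0.724 to 1.29 TPM) were lowest. No neighbours in this order overlapped at 0 h, though with 2 libraries a group the exact permutation test cannot go below p = 0.333. At 48 h *LTBP1* ranked next after *TGFBR2*, at 104 to 106 TPM, above *LTBP4* at 81.2 to 86.3, and *LTBP3* (62.3 to 64.1) and *TGFBR1* (62.0 to 64.1 TPM) overlapped.

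Members were compared with 0 h by edgeR's quasi-likelihood test over all genes, with an adjusted p under 0.05 taken as a call. At 6 h 2 members were higher and 1 was lower, beside 1.24% and 1.49% of all genes tested. At 12 h 3 were higher and 1 lower, beside 3.93% and 3.22%. At 24 h 6 were higher and 0 lower, beside 9.73% and 10.2%, and at 48 h 8 were higher and 0 lower, beside 16.0% and 16.3%. The median log2 fold change of the 10 members was 0.26, 0.34, 0.51 and 0.69 at 6, 12, 24 and 48 h, against 0.01, 0.00, 0.02 and 0.01 over all genes. The 4 comparisons share the 0 h libraries and are not independent of each other. All groups enter 1 estimate of the spread, and the counts moved with the 12 h libraries. Without 12 h replicate 1, 5, 5, 8 and 8 members were called at the 4 times, and 19.4%, 16.9%, 40.3% and 50.5% of all genes. Without 12 h replicate 2, 7 members and 44.9% of all genes were called at 12 h. Leaving out 1 library of 0 or 6 h left 0 or 1 call at 6 h, beside 0.350% to 0.451% of all genes. At 12 h 1 call was left without either 0 h library, beside 1.00% and 1.18%, and 2 without any 1 library of 6, 24 or 48 h, beside 3.20% to 3.52%. At 24 h 3 were left without either 0 h library, beside 8.17% and 8.79%. At 48 h, 5 were left without 0 h replicate 2, beside 17.8%, or without 48 h replicate 1, beside 17.4%.

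**Figure D1:**
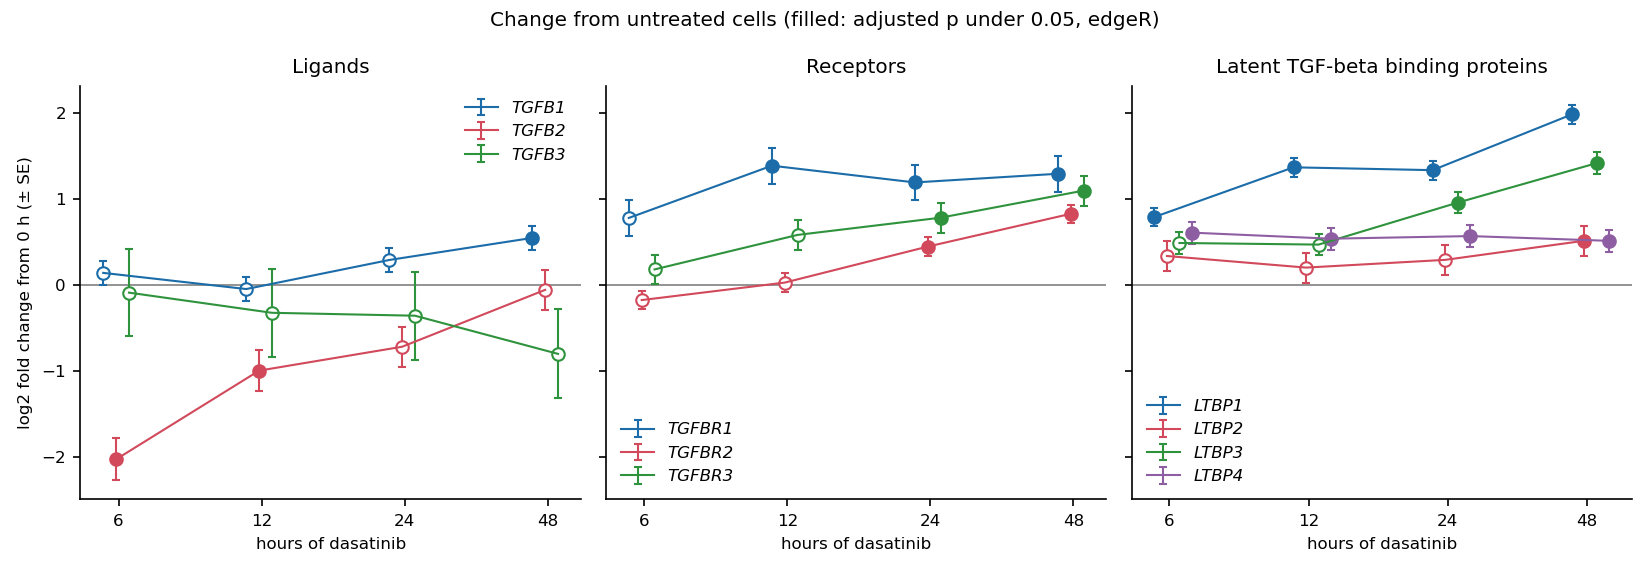
Log2 fold change from 0 h (y axis) at 6, 12, 24 and 48 h of dasatinib (x axis) for the ligands, receptors and LTBPs, from edgeR on 2 libraries per group. Bars are standard errors and filled points have an adjusted p under 0.05; *TGFB2* starts at -2.03 and returns to -0.06, while *LTBP1* climbs from 0.79 to 1.98.

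Among the ligands, *TGFB2* fell at 6 h and was back near its 0 h level at 48 h. *TGFB2* (chr1:218345336-218444619, + strand) encodes the isoform that depends most on betaglycan for binding. Its level as CPM, the counts scaled to a TMM-normalized library total, was 70.2 and 68.3 at 0 h, 15.9 and 18.0 after 6 h, 45.4 and 24.0 after 12 h, 44.3 and 39.8 after 24 h, and 66.2 and 67.0 after 48 h. All libraries of 6, 12 and 24 h lay below both 0 h libraries, and both 48 h libraries lay just under them in CPM, where those of TPM overlapped. In bulk RNA, fewer cells making a transcript and less transcript per cell cannot be told apart. The log2 fold change was -2.03 at 6 h (SE, the standard error, 0.244, adjusted p = 0.0025 from edgeR), a 4.08-fold lower level. Without 6 h replicate 1 this call was lost, at -1.93 (adjusted p = 0.0534), and it held with each of the other libraries left out. It was -0.998 at 12 h (SE 0.236, adjusted p = 0.0332) and -0.72 at 24 h (SE 0.235, adjusted p = 0.0562), which did not pass. The 12 h replicates differed, and the 12 h call was lost without any 1 of the 8 libraries of the other times. The value at 24 h passed without either 12 h library. At 48 h the log2 fold change was -0.06 (SE 0.233, adjusted p = 0.879). From 6 to 48 h it rose by a log2 fold change of 1.97 (SE 0.244, adjusted p = 0.000204 from edgeR), and this call held with each library left out in turn.

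*TGFB1* (chr19:41301587-41353922, - strand), the most abundant ligand, was called only at 48 h. It was at 139 and 118 CPM at 0 h, 138 and 146 after 6 h, 110.3 and 139 after 12 h, 156 and 159 after 24 h, and 198 and 179 CPM after 48 h. The 6 and 12 h libraries overlapped those of 0 h, and the 24 and 48 h libraries lay above both. At 48 h the log2 fold change was 0.55 (SE 0.136, adjusted p = 0.0116 from edgeR), and the call was lost without 0 h replicate 2 or 48 h replicate 1. At 24 h it was 0.29 (SE 0.136, adjusted p = 0.17), a value that passed without either 12 h library. Its annotated span overlaps *HNRNPUL1* on the opposite strand, and the sources used here do not state whether the counting used strand.

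*TGFB3* (chr14:75958097-75983011, - strand) was near the limit of detection, with 35 to 85 counts per library. Its level was 1.86 and 1.03 CPM at 0 h, 0.813 and 1.90 after 6 h, 0.904 and 1.40 after 12 h, 1.07 and 1.18 after 24 h, and 0.817 and 0.839 CPM after 48 h. The libraries overlapped those of 0 h at all times but 48 h. No difference passed, and the log2 fold change at 48 h was -0.80 (SE 0.519, adjusted p = 0.27).

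The 3 receptor genes were all higher at 48 h. *TGFBR1* was first called at 12 h and the other two at 24 h, and a difference in timing between the genes was not tested. *TGFBR1* (chr9:99104038-99154192, + strand), the type I receptor kinase, was at 50.1 and 47.5 CPM at 0 h, 84.3 and 83.3 after 6 h, 162 and 93.6 after 12 h, 119 and 105 after 24 h, and 120.0 and 119 CPM after 48 h. Every treated library lay above both 0 h libraries, and 12 h replicate 1 was highest. The log2 fold change was 0.78 at 6 h (SE 0.206, adjusted p = 0.0846 from edgeR), which did not pass. It was 1.39 at 12 h (adjusted p = 0.00474), 1.19 at 24 h (adjusted p = 0.0031) and 1.29 at 48 h (adjusted p = 0.000999), with SEs of 0.207 to 0.208. Without 12 h replicate 1 the value at 12 h was 0.95, and without replicate 2 it was 1.72. The value at 6 h passed without either 12 h library, and the call at 12 h was lost without either 0 h library.

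*TGFBR2* (chr3:30606601-30694142, + strand) is the type II receptor that binds ligand first. It was at 185.5 and 186 CPM at 0 h, 162 and 167 after 6 h, 201.5 and 177 after 12 h, 259 and 247 after 24 h, and 338 and 322 CPM after 48 h. Both 6 h libraries lay below those of 0 h, the 12 h libraries fell on either side of them, and those of 24 and 48 h lay above. The log2 fold change at 6 h was -0.18 (SE 0.106, adjusted p = 0.485), which did not pass. It rose to 0.45 at 24 h (SE 0.106, adjusted p = 0.0146 from edgeR) and 0.83 at 48 h (SE 0.107, adjusted p = 0.000271). The call at 24 h was lost without any 1 of the 0 and 24 h libraries. The rise from 6 to 48 h was 1.00 (SE 0.107, adjusted p = 8.57e-05).

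*TGFBR3* (chr1:91680343-91906335, - strand), which encodes betaglycan, was at 30.4 and 32.0 CPM at 0 h, 37.2 and 33.6 after 6 h, 55.0 and 38.5 after 12 h, 59.2 and 48.2 after 24 h, and 66.6 and 67.0 CPM after 48 h. All treated libraries lay above both 0 h libraries. The log2 fold changes of 0.18 at 6 h (adjusted p = 0.696) and 0.58 at 12 h (adjusted p = 0.0726) did not pass. It was higher by 0.78 at 24 h (SE 0.173, adjusted p = 0.0103 from edgeR) and 1.10 at 48 h (SE 0.174, adjusted p = 0.00094). The 24 h call was lost without either 0 h library or without 24 h replicate 1, and the value at 12 h passed without 12 h replicate 2.

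**Figure D2:**
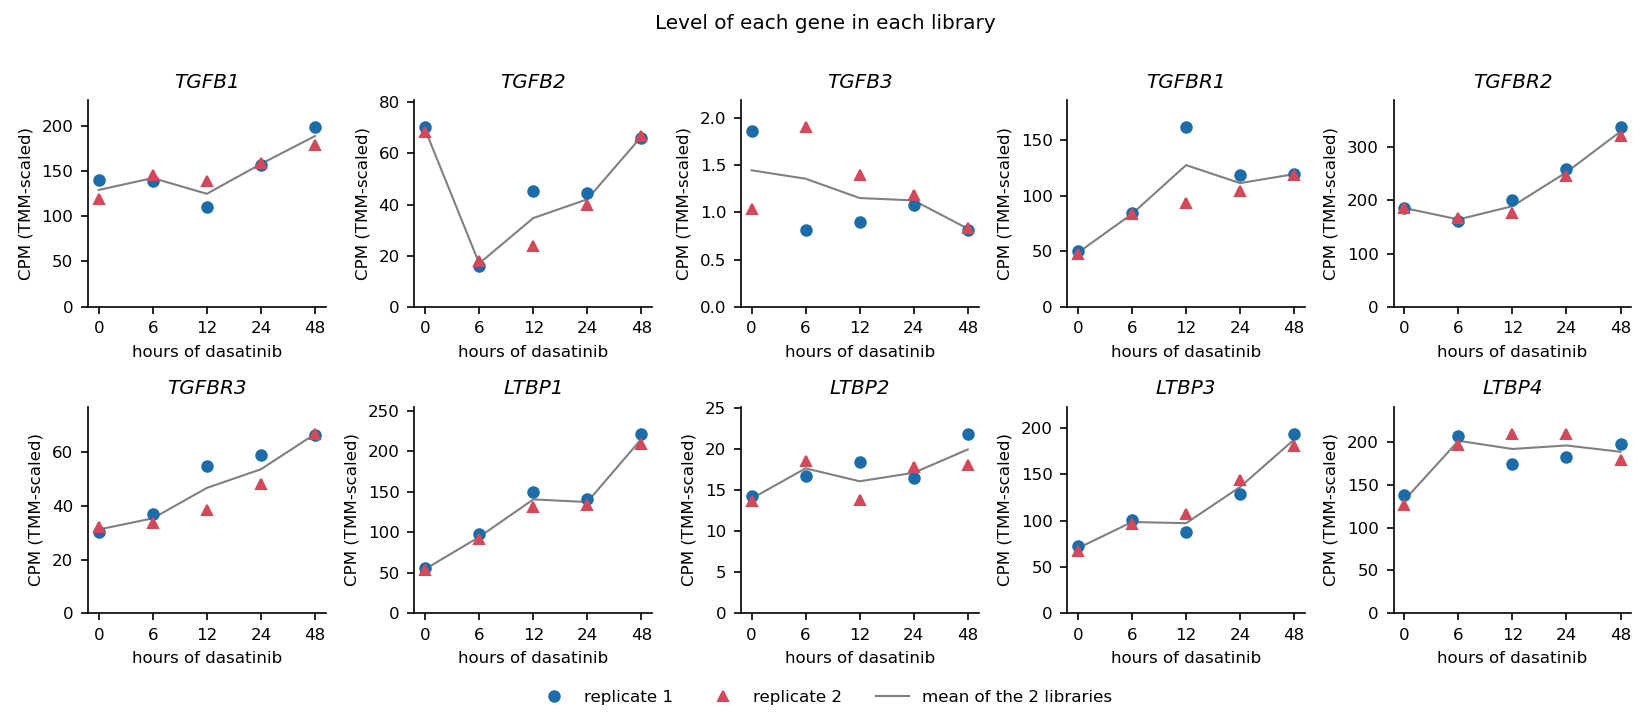
CPM of each gene (y axis, from 0) in each library by hours of dasatinib (x axis, evenly spaced times); circles are replicate 1, triangles replicate 2 and the line joins their means. *TGFB2* drops from 68.3 to 70.2 CPM at 0 h to 15.9 to 18.0 CPM at 6 h, and the 12 h replicates of *TGFBR1* lie far apart, at 162 and 93.6 CPM.

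Of the latency proteins, *LTBP1* was called higher than at 0 h at every time. Its log2 fold change at 48 h was the largest of the members. *LTBP1* (chr2:32946953-33399509, + strand) encodes an LTBP that binds the latent form of all ligand isoforms and deposits it on fibronectin and fibrillin fibers. It was at 55.4 and 53.5 CPM at 0 h, 97.3 and 91.1 after 6 h, 150.2 and 131 after 12 h, 141 and 134 after 24 h, and 222 and 209 CPM after 48 h. The groups did not overlap with 0 h at any time, while those of 12 and 24 h overlapped each other. The mean of 215 ± 9.46 CPM (SD, n = 2) at 48 h was 3.96-fold that of 54.4 ± 1.3 CPM (SD, n = 2) at 0 h by the fit. The log2 fold change was 0.79 at 6 h (SE 0.11, adjusted p = 0.00507 from edgeR), 1.37 at 12 h (adjusted p = 0.000207), 1.34 at 24 h (adjusted p = 7.56e-05) and 1.98 at 48 h (SE 0.113, adjusted p = 3.97e-06). The 6 h call was lost without any 1 of the 0 and 6 h libraries, and the calls at 12, 24 and 48 h held with each library left out in turn.

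*LTBP3* (chr11:65538559-65558930, - strand), which also binds latent TGF-beta, passed the test only from 24 h on. It was at 72.8 and 67.7 CPM at 0 h, 100.2 and 96.9 after 6 h, 87.3 and 107 after 12 h, 129 and 144 after 24 h, and 194 and 181 CPM after 48 h. All treated libraries lay above those of 0 h. The log2 fold changes of 0.49 at 6 h (adjusted p = 0.0741) and 0.47 at 12 h (adjusted p = 0.0501) did not pass, and both passed without either 12 h library. It rose by 0.96 at 24 h (SE 0.125, adjusted p = 0.0007 from edgeR) and by 1.42 at 48 h (SE 0.126, adjusted p = 3.39e-05).

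*LTBP4* (chr19:40592883-40629818, + strand), an LTBP that also takes part in elastic fiber assembly, was called higher at all 4 times. It was at 139 and 126 CPM at 0 h, 207 and 197 after 6 h, 174 and 210.4 after 12 h, 183 and 210.3 after 24 h, and 199 and 179.5 CPM after 48 h. All treated libraries lay above those of 0 h, and the treated groups overlapped one another. The log2 fold change was 0.61 at 6 h (SE 0.13, adjusted p = 0.0369 from edgeR), 0.54 at 12 h (adjusted p = 0.0354), 0.57 at 24 h (adjusted p = 0.0118) and 0.51 at 48 h (adjusted p = 0.0125). Its difference between 6 and 48 h was -0.10 (SE 0.129, adjusted p = 0.616). The calls at 6 and 12 h were each lost without any 1 of the 8 libraries of 0, 6, 24 and 48 h. The call at 24 h was lost without either 0 h library or 24 h replicate 2, and that at 48 h without either 0 h library or 48 h replicate 1. With each library's trend with gene length removed, the log2 fold changes were 0.66 (adjusted p = 0.0534), 0.43 (adjusted p = 0.13), 0.55 (adjusted p = 0.0335) and 0.40 (adjusted p = 0.0819).

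*LTBP2* (chr14:74498183-74612378, - strand), the only LTBP that does not bind latent TGF-beta, was called only at 48 h. It was at 14.3 and 13.6 CPM at 0 h, 16.7 and 18.5 after 6 h, 18.3 and 13.8 after 12 h, 16.4 and 17.7 after 24 h, and 21.9 and 18.0 CPM after 48 h. The 12 h libraries overlapped those of 0 h, and the others lay above. The log2 fold change of 0.51 at 48 h (SE 0.174, adjusted p = 0.0451 from edgeR) passed, but it was lost without any 1 of the 8 libraries of 0, 6, 24 and 48 h, and with the length trend removed it was 0.39 (adjusted p = 0.0595). With that trend removed 6 members were called at 48 h in place of 8, and *LTBP1* kept a log2 fold change of 1.89 and *LTBP3* one of 1.26.

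The treated times were also compared with one another, without the 0 h libraries in the contrast. From 6 to 48 h 6 of the 10 members rose and 0 fell, beside 33.2% of all genes called in either direction: *TGFB2*, *LTBP1*, *TGFBR2*, *LTBP3* by 0.93, *TGFBR3* by 0.92 and *TGFB1* by 0.41 (adjusted p = 0.042). From 6 to 12 h only *LTBP1* passed, beside 0.725% of all genes, with a log2 fold change of 0.58 (SE 0.109, adjusted p = 0.0497 from edgeR). From 12 to 24 h *LTBP3* rose by 0.49 (adjusted p = 0.0417) and *TGFBR2* by 0.42 (adjusted p = 0.0414), beside 7.58%. From 24 to 48 h *LTBP1* rose by 0.65 (SE 0.109, adjusted p = 0.0127), beside 3.18%. The calls from 6 to 12 h and from 12 to 24 h were lost without any 1 of the 8 libraries of 0, 6, 24 and 48 h, and that from 24 to 48 h without any 1 of the 24 and 48 h libraries. Without 12 h replicate 1, 2, 4, 6 and 7 members were called from 6 to 12, 12 to 24, 24 to 48 and 6 to 48 h, beside 5.40%, 17.3%, 21.4% and 50.5% of all genes. Without 12 h replicate 2 these were 6, 4, 6 and 7, beside 46.7%, 44.5%, 20.9% and 49.6%.

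Within each family the balance of transcripts shifted, given here as shares of the summed TPM with no test. *TGFB2* made up 21.1% and 23.5% of ligand TPM at 0 h, 5.78% and 6.18% after 6 h, 18.0% and 8.41% after 12 h, 13.2% and 11.8% after 24 h, and 15.2% and 16.7% after 48 h. Its share was below that of both 0 h libraries in every treated library. At 48 h *TGFB1* was higher than at 0 h, and the summed ligand TPM was 176 ± 14.9 (SD, n = 2) at 0 h, 159 ± 1.49 at 6 h and 248 ± 7.57 at 48 h. The ratio of *TGFBR2* to *TGFBR1* TPM was 3.69 and 3.90 at 0 h, 1.91 and 2.00 after 6 h, 1.24 and 1.89 after 12 h, 2.18 and 2.35 after 24 h, and 2.80 and 2.69 after 48 h. All treated libraries lay below both 0 h libraries in this ratio. The betaglycan gene *TGFBR3* made up 9.35% to 11.1% of receptor TPM in every library. Summed *LTBP* TPM went from 109 ± 4.38 (SD, n = 2) at 0 h to 260.1 ± 7.28 (SD, n = 2) at 48 h. *LTBP1* went from 22.8% and 23.7% of it to 40.1% and 40.9%, while *LTBP4* went from 51.8% and 50.8% to 32.5% and 31.9%.

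**Figure D3:**
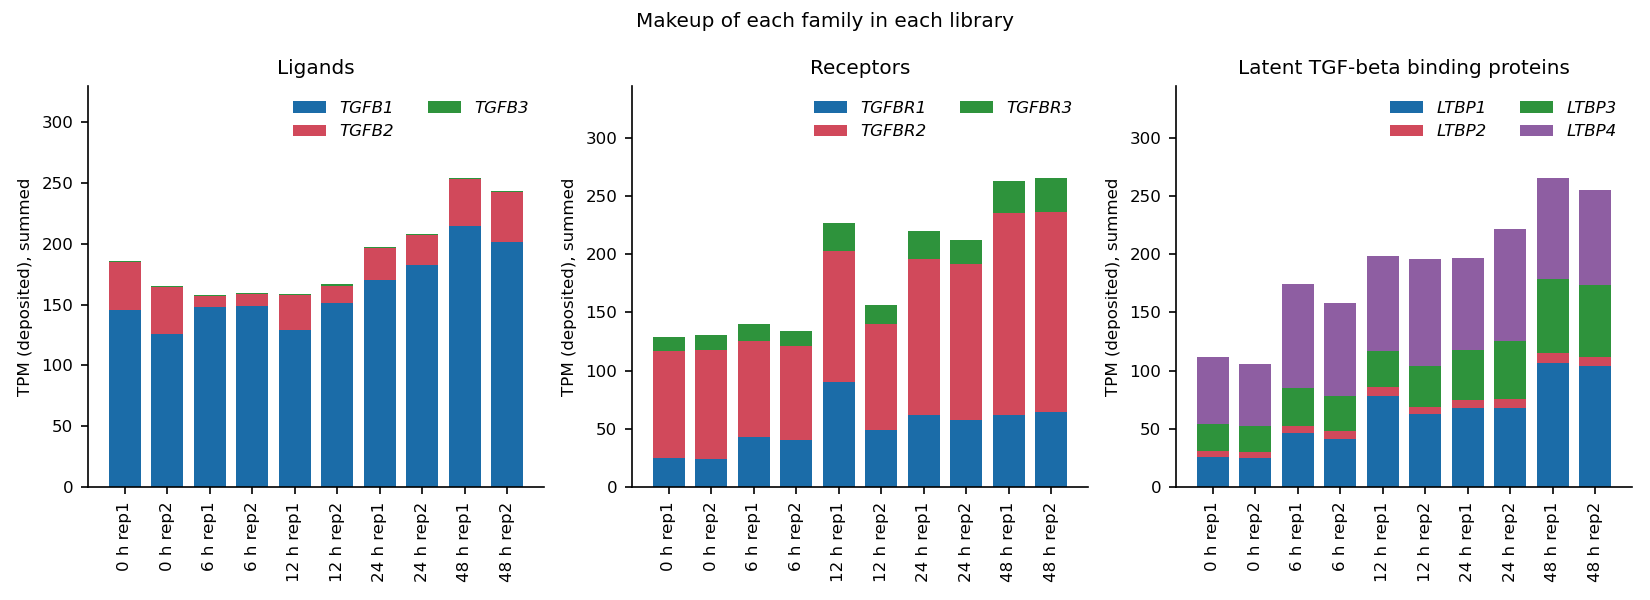
Deposited TPM (y axis, from 0) of each family in each of the 10 libraries (x axis), stacked by gene. The *TGFB2* part of the ligand bars is thinnest at 6 h, at 5.78% and 6.18%, and *LTBP1* widens to 40.1% and 40.9% of the *LTBP* bars at 48 h.

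The other genes of the pathway were taken from 4 lists. Leaving out the members, 56 of the 60 genes were tested (*CD109*, *CDKN2B*, *CXCR4* and *LRRC32* did not pass the filter), and 16 were higher and 7 lower at 48 h, beside 16.0% and 16.3% of all genes. At 6 h these were 7 higher and 2 lower, beside 1.24% and 1.49%, at 12 h 8 higher and 4 lower, beside 3.93% and 3.22%, and at 24 h 11 higher and 4 lower, beside 9.73% and 10.2%. The split at 12 h depended on the fit. With each library's trend with gene length removed it turned to 4 higher and 8 lower, beside 9.54% of all genes in either direction. The other fits over all libraries kept more genes higher than lower. Leaving out 1 library of 0, 24 or 48 h also reversed the split, and leaving out 1 of 12 h did not. The share of these genes called lower was below that of all genes at 24 and 48 h. Their median log2 fold change at 48 h was 0.25. With 1 library left out the counts moved widely, as did those over all genes. Without either 12 h library 31 were called at 6 h, beside 19.0% to 19.4% of all genes, and 35 at 24 h, beside 39.6% to 40.3%. At 12 h 23 were called without replicate 1 of that time, beside 16.9%, and 30 without replicate 2, beside 44.9%. Without either 0 h library 15 were called at 48 h, beside 17.3% and 17.8%. Of 15 tested genes for ligand activation and matrix storage, 6 were higher and 1 lower at 48 h (all genes, 16.0% and 16.3%), with a median log2 fold change of 0.50. *ITGB3*, a subunit of an integrin that can activate latent ligand, went from 4.68 ± 0.578 CPM (SD, n = 2) up to 37.5 ± 0.952 CPM (SD, n = 2), with a log2 fold change of 3.0 (adjusted p = 7.4e-06 from edgeR). Its relative *ITGB5* rose by 1.18 (adjusted p = 3.68e-05), and *FBN1*, the fibrillin to which LTBPs bind, by 1.17 (adjusted p = 0.00039). *THBS1*, a matricellular protein that can also activate the latent complex, was lower at -0.72 (adjusted p = 0.0115).

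Of 12 tested co-receptors and receptor regulators, 1 was higher and 2 were lower at 48 h, beside 16.0% and 16.3% of all genes. *PMEPA1*, an inhibitor of receptor signaling that TGF-beta itself induces, rose by 2.51 at 6 h (adjusted p = 9.29e-05 from edgeR) and by 0.65 at 48 h (adjusted p = 0.0139), and *STRAP* (-0.52) and *TGFBRAP1* (-0.46) were lower at 48 h. Of 12 SMAD proteins and nuclear partners, 3 were higher and 0 lower at 48 h, beside the same 16.0% and 16.3%: the inhibitory SMADs *SMAD6* (0.74, adjusted p = 0.00169) and *SMAD7* (0.76, adjusted p = 0.0488), and the repressor *TGIF1* (0.82, adjusted p = 0.0137). The receptor-activated *SMAD2* and *SMAD3* and the shared *SMAD4* did not pass at 48 h, at 0.24, -0.13 and 0.18. At 12 h *SMAD2* was called higher, at 0.58 (adjusted p = 0.0405 from edgeR), with 110.1 and 81.3 CPM in replicates 1 and 2.

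Known TGF-beta target genes were called in both directions. Of 21 tested, *LTBP2* among them, 9 were higher and 4 lower at 48 h, beside 16.0% and 16.3% of all genes, so that the share called lower was close to that of all genes. At 6 h 5 were higher and 1 lower, beside 1.24% and 1.49%. *PMEPA1*, *SMAD7* and *SKIL* are in this list and also among the receptor regulators or SMAD partners, so the lists share some calls. Fibronectin (*FN1*) rose by 2.01 at 48 h (adjusted p = 8.39e-06 from edgeR), the circadian repressor *BHLHE40* by 1.57 (adjusted p = 4.87e-05) and the Notch ligand *JAG1* by 1.03 (adjusted p = 8.39e-05). The actin-binding *TAGLN* (-1.07, adjusted p = 0.00501 from edgeR) and the transcription factor *SNAI2* (-0.75, adjusted p = 0.027) were lower. At 6 h *IL11* was higher at 2.48 (adjusted p = 0.000235 from edgeR) and *CCN2* lower at -2.03 (adjusted p = 0.000235). These 2, the 6 h value of *PMEPA1* and the values of *SMAD2*, *SMAD3* and *SMAD4* were chosen after they were seen.

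**Figure D4:**
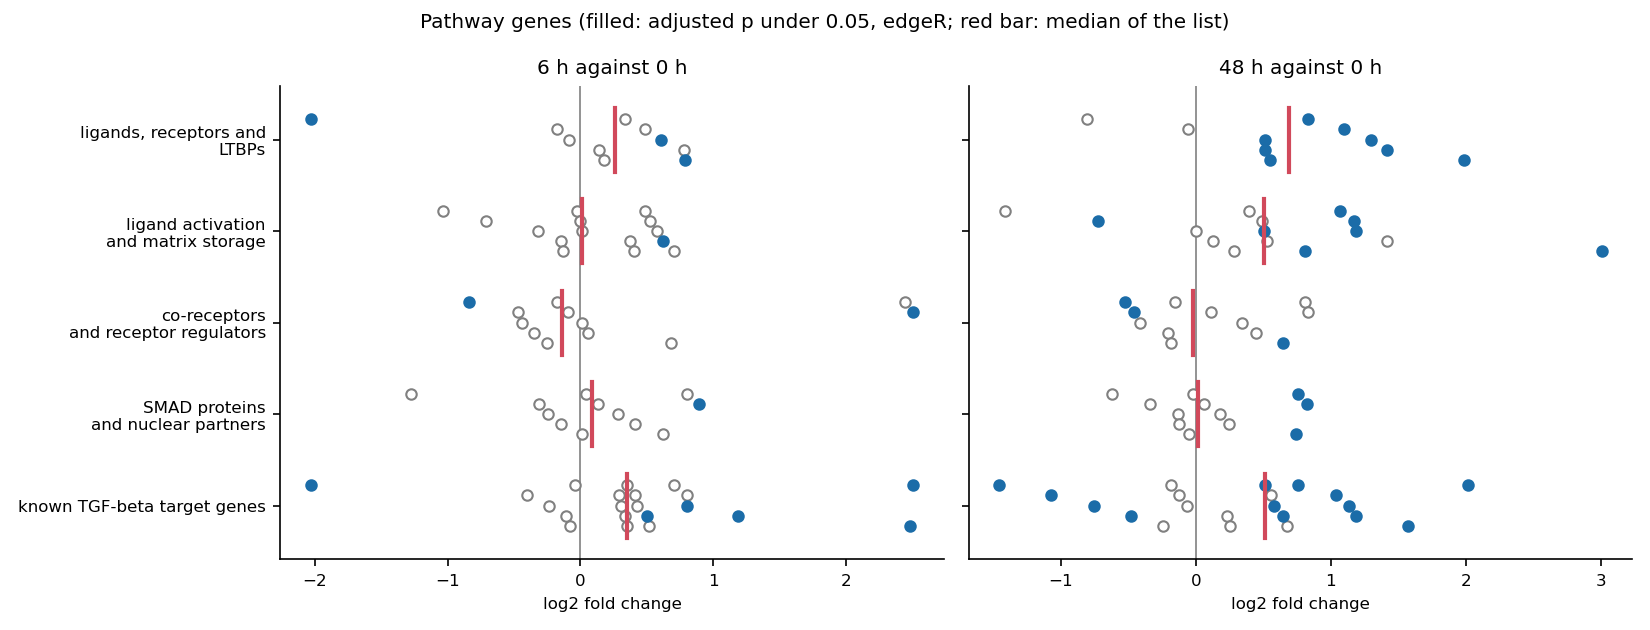
Log2 fold change (x axis) at 6 h and 48 h against 0 h for each tested gene of the members and of the 4 pathway lists (rows), with filled points for an adjusted p under 0.05 and a red bar at the median of the list. The members' median moves from 0.26 to 0.69, and the target genes hold called points on both sides of 0 at both times.

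For each member the genes with the most similar log2 CPM over the 10 libraries were listed as a description, from all genes tested, where libraries of 1 time share a treatment. *TGFB2* was most like *LPAR1*, a receptor for lysophosphatidic acid (Pearson r = 0.988), and *ARHGAP29* (r = 0.986), whose row holds the same counts as that of *LOC105378858*. *TGFBR2* was most like *ADGRF5* (r = 0.998), *CDH11* (r = 0.991), a mesenchymal cadherin, and *COPG1* (r = 0.990), *TGFBR1* like *PDE4D* (r = 0.987) and *LAPTM5*, and *TGFBR3* like *PDGFD* (r = 0.992), *ATXN1* and *BTD*. *LTBP1* was most like *ABCA7* (r = 0.990), *DUSP4* and *KIAA1217*, and *LTBP3* like *FIBCD1* (r = 0.996), *MLPH* and *BHLHE40*. *LTBP4* was most like *DDIT4* (r = 0.953), *LMAN2L* and *IER5L*, *LTBP2* like *MFHAS1* (r = 0.927), *ZNNT1* and *INF2*, *TGFB1* like *ACOT8* (r = 0.986), *SUMF1* and *LOC100130207*, and *TGFB3* like *FAM86B1* (r = 0.879), *C12orf60* and *RPSAP70*. *SUMF1* and *LOC100130207* had the same r (0.97) and the same log2 fold change at each time, so they are not separate evidence of likeness. The likest gene of *LTBP4*, *DDIT4*, had log2 fold changes of 2.72, 2.43, 2.68 and 2.15 at the 4 times, and that of *TGFB2* had -1.07, -0.59, -0.40 and -0.06.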

How the data were processed

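RNA was measured by RNA-seq (NEBNext Ultra libraries, paired reads) in 10 libraries. As the paper and the submitters' notes describe, the authors used FastQC and MultiQC for quality checks, Trim Galore for trimming, STAR 2.5.2b for alignment to hg38 and featureCounts for gene counts; annotation and strand setting are not given in the sources used here. The authors deposited raw counts per gene symbol and TPM (a level scaled by gene length and library total). Each gene's counts over TPM hold 1 fixed ratio across libraries after scaling, so the TPM come from the same counts, with 1 length per gene. Groups come from the sample titles.

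In R 4.3.3, edgeR 4.0.16 was used: filter on low counts by group (15727 of 36687 genes), TMM scaling, 1 fit over all 10 libraries with a mean per group, robust quasi-likelihood test, and Benjamini-Hochberg adjustment over all genes with a threshold of 0.05. A standard error is the log2 fold change divided by the square root of F. CPM are TMM-scaled. Counts of 40942913 to 49133774 per library limit the precision of low genes. The step was tested on simulated data. Alternatives were no filter on low counts, DESeq2-type size factors, DESeq2 1.42.0 on all libraries or on the 2 groups alone, edgeR on the 2 groups alone, a replicate block by number, limma 3.58.1 on log2(TPM + 1) and log2(TPM + 0.1) with at least 1 TPM in 2 libraries or no filter, each library's length trend removed (loess, span 0.5), each library left out, and both 12 h libraries left out.

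The members, the 4 pathway lists and the tests were chosen with earlier results of these data known. All 10 members are named, for each pathway list the 3 higher and 3 lower genes of smallest adjusted p (48 h), and the 3 genes most correlated with each member. A few genes that meet these rules are left out of the text. Gene positions are from the GENCODE annotation of GRCh38, the same assembly as hg38; the annotation behind the deposited counts may be another. Upstream sequences are from RefSeq (GRCh38.p14), the first start listed for each gene.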

Additional observations from a re-analysis of the deposited data

Results flagged for a closer look

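The change from 0 h at 48 h differed from that at 6 h for 6 members by edgeR's test of the difference itself, which compares the 2 treated times. The difference in log2 fold change was 1.97 for *TGFB2*, 1.19 for *LTBP1*, 1.00 for *TGFBR2*, 0.93 for *LTBP3*, 0.92 for *TGFBR3* and 0.41 for *TGFB1*. *TGFB2* was called lower at 6 h (-2.03) and was not called at 48 h (-0.06), and the other 5 had a higher log2 fold change at 48 h than at 6 h, where *TGFBR2* lay below 0 h (-0.18, not called). The difference of *TGFB1* was lost without any 1 of the 8 libraries of 0, 6, 24 and 48 h, and the other 5 held with each library left out in turn. Untreated cells at 6 and 48 h were not measured, so dasatinib and time in culture cannot be told apart in any of them.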

How the results depend on the processing

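Of 1182 alternative values for 57 log2 fold changes of members, 972 kept their direction and side of the threshold, 133 lost a call, 58 gained one and 19 changed sign, none of them of a result that had been called. The sign changes were of *TGFB1* at 12 h (0.0508 by limma with a pseudocount of 1, filtered or not, 0.0512 with 0.1, and 0.0198 with the length trend removed), *TGFB2* at 48 h (0.0151, filtered or not, and 0.0154 by the same limma fits), *TGFBR2* at 12 h (-0.0725) and *LTBP2* from 6 to 48 h (-0.0111), both with the length trend removed. With 1 library left out, the values ran from -0.23 to 0.12 for *TGFB1*, from -0.062 to 0.11 for *TGFBR2* and from -0.0132 to 0.39 for *LTBP2* at 12 h, and from -0.10 to 0.80 for *TGFB2* from 12 to 24 h. Those of *TGFB3* lay between -0.83 and 0.40 at 6 h, between -0.70 and 0.15 at 12 h, between -0.73 and 0.12 at 24 h and between -1.21 and 0.0229 from 6 to 48 h.

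Counts of members called moved as follows, each beside the share of all genes called in the same fit. At 6 h (2.73% of all genes in the report's fit) 5 were called with no filter on low counts or by DESeq2 on all libraries (both 3.97%), by DESeq2 (14.0%) or edgeR (20.5%) on the 2 groups alone, and without both 12 h libraries (20.7%). At 12 h (7.15%), DESeq2 on the 2 groups alone (1.41%) and limma with no filter (2.00%) called 2 and edgeR on the 2 groups alone 0 (0 of all genes), where edgeR over all libraries had 6 at an unadjusted p under 0.05. From 6 to 12 h (0.725%), 3 were called with no filter (9.69%), 2 by DESeq2 on all libraries (5.36%) and 0 by DESeq2 (0.0632%) or edgeR (0 genes) on the 2 groups alone, the 3 limma fits (0.0174% to 0.267%) and with the length trend removed (1.12%), where edgeR with all libraries gave 4 at an unadjusted p under 0.05. From 12 to 24 h (7.58%), 1 was called with the length trend removed (10.9%) and 0 by DESeq2 (1.59%) or edgeR (0 genes) on the 2 groups alone and by the 3 limma fits (2.57% to 6.88%; 3 at an unadjusted p under 0.05 by edgeR). From 24 to 48 h (3.18%), 3 were called with no filter (5.05%) or by DESeq2 on all libraries (4.70%), 6 by DESeq2 (15.4%) or edgeR (25.4%) on the 2 groups alone or without both 12 h libraries (22.8%), and 0 by limma with no filter (0.989%; 4 at an unadjusted p under 0.05 by edgeR). With 1 library left out, the counts lay between 0 and 5 at 6 h (0.350% to 19.4% of all genes), between 1 and 7 at 12 h (1.00% to 44.9%), between 3 and 8 at 24 h (7.23% to 40.3%) and between 5 and 8 at 48 h (17.3% to 50.5%). Between treated times they were 0 to 6 from 6 to 12 h (0% to 46.7%), 0 to 4 from 12 to 24 h (0.761% to 44.5%), 0 to 6 from 24 to 48 h (0.101% to 21.4%) and 5 to 7 from 6 to 48 h (17.2% to 50.5%). The group left with 1 library is assumed to vary like the others. The cause of these moves was not tested.

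Of the other pathway genes, with the shares of all genes at 6 and 12 h as above, 16 were called at 6 h with no filter, 15 by DESeq2 on all libraries, 30 by either tool on the 2 groups alone and 31 without both 12 h libraries. At 12 h, DESeq2 on the 2 groups alone called 6 and edgeR 0, at 24 h DESeq2 on the 2 groups alone called 31 (28.2% of all genes), edgeR 33 (43.9%) and the fit without both 12 h libraries 35 (43.2%), and at 48 h the last called 35 (54.3%). With 1 library left out they were 3 to 31 at 6 h, then 5 to 30, then 8 to 35 and finally 15 to 34 by 48 h.

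With the replicate number as a block, 2, 4, 7 and 8 members were called at 6, 12, 24 and 48 h (2.44%, 6.55%, 19.5% and 32.1% of all genes), 0 from 6 to 12 h (0.375%) and from 12 to 24 h (7.12%), 1 from 24 to 48 h (2.93%) and 5 from 6 to 48 h (33.2%). Correlations of the differences between replicates across pairs of times, over all genes tested, ran from -0.0368 to 0.104. Noise within each library also enters these values, so they cannot decide whether samples of the same number shared a culture or a batch. The position of the treated libraries beyond both 0 h libraries, or not, was the same in CPM and TPM for 37 of 40 pairs of member and time, the exceptions being *TGFB1* at 6 h, *TGFB2* at 48 h and *LTBP2* at 12 h.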
